A study of Homo sapiens with 12 samples.

Results

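SCC6 is an established cell line of head and neck squamous cell carcinoma (HNSCC), and the cells described here are the few SCC6 cells in which no transcript of VIM was counted after cetuximab. VIM (chr10:17228241-17237593, GRCh38) encodes vimentin, an intermediate filament protein that marks the mesenchymal state. Members were selected on 3 measured or labelled properties, namely a cetuximab-treated SCC6 sample, a total of 15000 or more unique molecular identifiers (UMIs, each standing for 1 captured transcript) in the cell, and a raw VIM count of 0. By this rule 135 cells were members, of 4231 cetuximab-treated SCC6 cells above the same depth limit and of 23914 cells in the whole series.

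Single-cell RNA sequencing (scRNA-seq) covered 3 HNSCC lines, SCC1, SCC6 and SCC25, each with cetuximab or phosphate-buffered saline (PBS), with 2 replicates per group and 12 samples in all. Cetuximab is an antibody that binds EGFR, the receptor of epidermal growth factor. SCC6 cells received it daily at 100 nM over 5 days, and the control cells received PBS over the same time. Every SCC6 sample comes from 1 line grown in culture. The sources call the replicates duplicates without saying whether they are separate cultures, so that the spread between replicates may be technical. Sequencing was deep, with 76008513 and 89989753 UMIs in cetuximab replicates 1 and 2, and 100360353 and 102796996 UMIs in the PBS replicates. Above the depth limit, 2592 and 1639 cetuximab cells and 2652 and 2436 PBS cells were kept.

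Epithelial-mesenchymal transition (EMT) is a programme in which epithelial cells loosen their junctions and gain vimentin, N-cadherin, fibronectin, collagens and a contractile actin apparatus. It proceeds through intermediate states in which epithelial and mesenchymal genes are present in the same cell. In squamous carcinoma it has been tied to migration and to resistance against drugs that block EGFR, a receptor whose ligands (such as amphiregulin and epiregulin) act through the MAPK cascade on target genes. Cetuximab keeps these ligands from the receptor.

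VIM itself chose the members, and its levels are given only as a description. In the kept cetuximab cells VIM stood at 852 and 809 UMIs per 1000000 UMIs of its cells (CPM) in replicates 1 and 2, which corresponds to 12.8 and 12.1 VIM UMIs in a cell of 15000. In kept PBS cells it stood at 28.1 and 82.8 CPM. Cells with 0 VIM UMIs made up 113 of 2592 cells in cetuximab replicate 1 (4.36%, exact 95% interval 3.61 to 5.22) and 22 of 1639 in replicate 2 (1.34%, 0.843 to 2.03). In PBS they were the largest class, with 1889 cells (71.2%) and 1167 cells (47.9%). The comparison class of cells with 5 or more VIM UMIs, called VIM-high below, held 2029 and 1410 cetuximab cells (78.3% and 86.0%). These intervals cover counting error only.

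**Figure D1:**
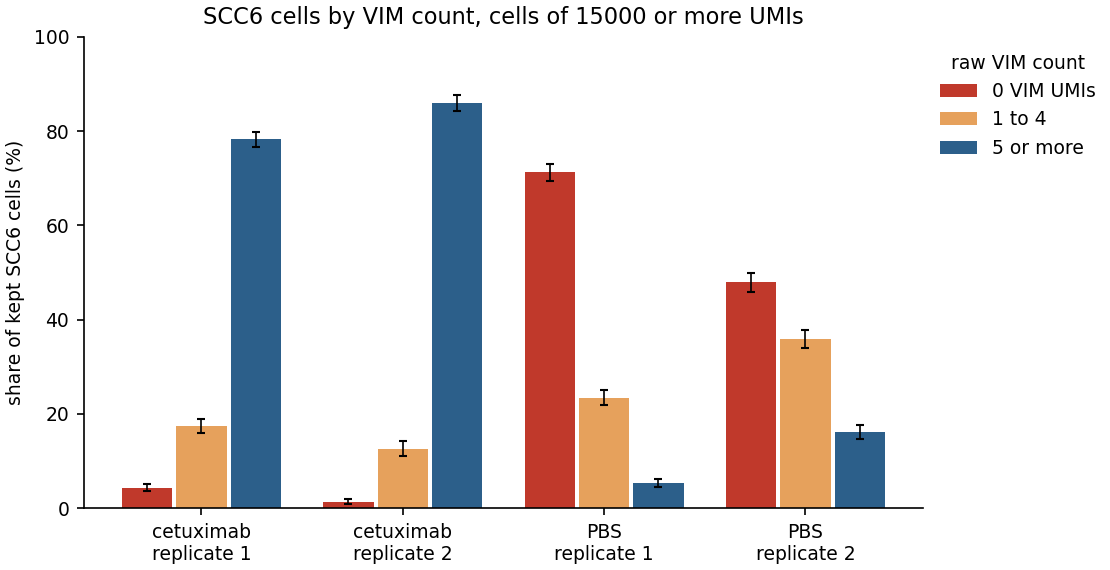
Share of kept SCC6 cells (percent, vertical axis) by raw VIM count in each of the 4 samples, with exact 95% intervals as error bars. Cells without VIM make up 4.36% and 1.34% of the cetuximab samples and 71.2% and 47.9% of the PBS samples.

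The rule cuts a continuous range. The members held 15181 to 83256 UMIs, and 26 further VIM-zero cetuximab cells lay below the limit, the deepest at 14953 UMIs. Just outside on the VIM side were 166 cells with 1 VIM UMI. Depth bears on a count of 0, and the samples differed in depth. Members had a median of 24098 UMIs in replicate 1 and 51677 in replicate 2, against 25667 and 50422 in VIM-high cells of the same samples. When every kept cell was thinned to 15000 UMIs (reads drawn without replacement), 7.29% and 8.11% of cetuximab cells and 82.1% and 65.0% of PBS cells had no VIM UMI. The lower share of members in replicate 2 at full depth therefore did not appear at equal depth.

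Genes that mark SCC6 against the other lines gave a median of 228 UMIs per member in replicate 1 and 713.5 in replicate 2, whereas genes that mark SCC1 gave 3 and 5.5, and in 0 members did markers of another line outweigh those of SCC6. KRT17, a keratin of stressed and basal epithelium, was present after thinning in 112 of 113 and in 22 of 22 members. EPCAM, an epithelial adhesion protein, was present in 65.5% and 100% of them, against 68.7% and 92.1% of VIM-high cells. CDH1, an epithelial cadherin, was present in 35.4% and 22.7% of members, against 36.8% and 37.7% of VIM-high cells. In replicate 2 this was 5 of 22 members (exact 95% interval 7.82 to 45.4). The basal keratins KRT5 and KRT14 were nearly absent, at or below 5.13 CPM in members and at or below 4.81 CPM in VIM-high cells.

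Few UMIs came from markers of other cell types. PTPRC, CD3E and HBB, genes of blood cells, and the liver gene ALB had no UMI in 113 of 113 and 22 of 22 members after thinning. This limits the share of cells with a UMI at that depth to 3.21% and 15.4% (exact upper bounds), not the share that expresses a gene. The list of 12 immune markers summed to 6.01 to 7.86 CPM in members, 4.71 to 5.22 in VIM-high cells and 13.4 to 28.1 in PBS, most of it from CD68, a lysosomal protein that is not restricted to immune cells. The list of 12 endothelial and fibroblast markers summed to 6.01 to 10.3 CPM in members and 24.7 to 29.7 in VIM-high cells, and PECAM1 was at 0 in both.

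Cell barcodes were shared between libraries in few cases. Of the members, 3 carried a barcode that also occurred in another of the 12 samples, in 1 case in an SCC6 PBS sample. No doublet caller was run, and 3 members belonged to the top 5% of their sample by UMIs. Members were not of low quality by the usual measures. They had a median of 3487 and 3608 genes per cell after thinning, against 3543 and 3662 in VIM-high cells, and 0 of them had more than 20% of UMIs from mitochondrial genes.

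The first comparison asked how VIM-zero cells differed from VIM-high cells of the same cetuximab samples. Cells are not replicates, so UMIs were summed per sample and VIM class and tested with edgeR, with the sample as a block and VIM left out. Many mesenchymal and contractile genes were lower in VIM-zero cells, among them FN1, COL5A1, TAGLN and MYL7, while AREG (a ligand of EGFR), aldo-keto reductase genes and stress response genes were higher. Of 14820 genes tested, 229 were higher in VIM-zero cells (1.55%) and 441 were lower (2.98%) at a false discovery rate (FDR) under 0.05. The VIM-zero sums rest on 113 and 22 cells, and their cell-to-cell variation is larger than that of sums over 2029 and 1410 cells. The fit shares variance across genes. The standard errors (SE) and FDR below therefore do not fully cover the spread between the 2 samples or between cells.

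That count depended on the samples and the fit. It was 168 without cetuximab replicate 1 and 363 without cetuximab replicate 2, 237 when each VIM-zero cell was matched by depth with 1 VIM-high cell of its sample, and 301 with DESeq2, and all 301 were also called by edgeR in the same direction. Without the sample block 0 genes passed in edgeR (387 at an unadjusted p under 0.05).

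Extracellular matrix genes stood at a level between VIM-high and PBS cells. FN1, which encodes fibronectin, was at 1935 and 1496 CPM in VIM-zero cells of replicates 1 and 2, at 3699 and 2812 CPM in VIM-high cells, and at 419.8 and 455.4 CPM in PBS cells. The VIM-zero values lay below both VIM-high values and above both PBS values, with no overlap. The fold change against VIM-high cells was -0.92 ± 0.07 on the log2 scale (SE, FDR = 8.99e-18). COL5A1, a fibrillar collagen chain, was at 77.6 and 42.0 CPM in VIM-zero, 140.8 and 94.9 in VIM-high and 3.50 and 8.49 in PBS cells (log2 fold change against VIM-high -0.97 ± 0.13, FDR = 2.38e-08). COL4A1, a chain of basement membrane collagen, was at 81.0 and 48.9 CPM in VIM-zero and 146.7 and 106.3 CPM in VIM-high cells (-0.95 ± 0.12, FDR = 2.85e-08). For all 3 genes the VIM-zero cells of both replicates stayed below VIM-high cells of either replicate.

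The contractile apparatus followed the same order. TAGLN, the actin-binding protein transgelin, was at 644 and 777 CPM in VIM-zero, 1070 and 1453 in VIM-high and 164.5 and 176.7 in PBS cells (log2 fold change against VIM-high -0.82 ± 0.08, FDR = 9.21e-12). TPM1, a tropomyosin, was at 959 and 1097 CPM in VIM-zero, 1690 and 1869 in VIM-high and 166.3 and 254.8 in PBS cells (-0.80 ± 0.07, FDR = 1.42e-13). A larger fall was that of MYL7, a myosin light chain best known from the heart atrium. MYL7 was at 59.2 and 45.5 CPM in VIM-zero, 214 and 225 in VIM-high and 0.946 and 3.77 in PBS cells (-2.03 ± 0.12, FDR = 5.06e-21). In replicate 2, 1 of the 22 members held 23 of their 53 MYL7 UMIs. VIM-zero cells thus kept MYL7 above PBS cells and below VIM-high cells in both replicates.

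**Figure D2:**
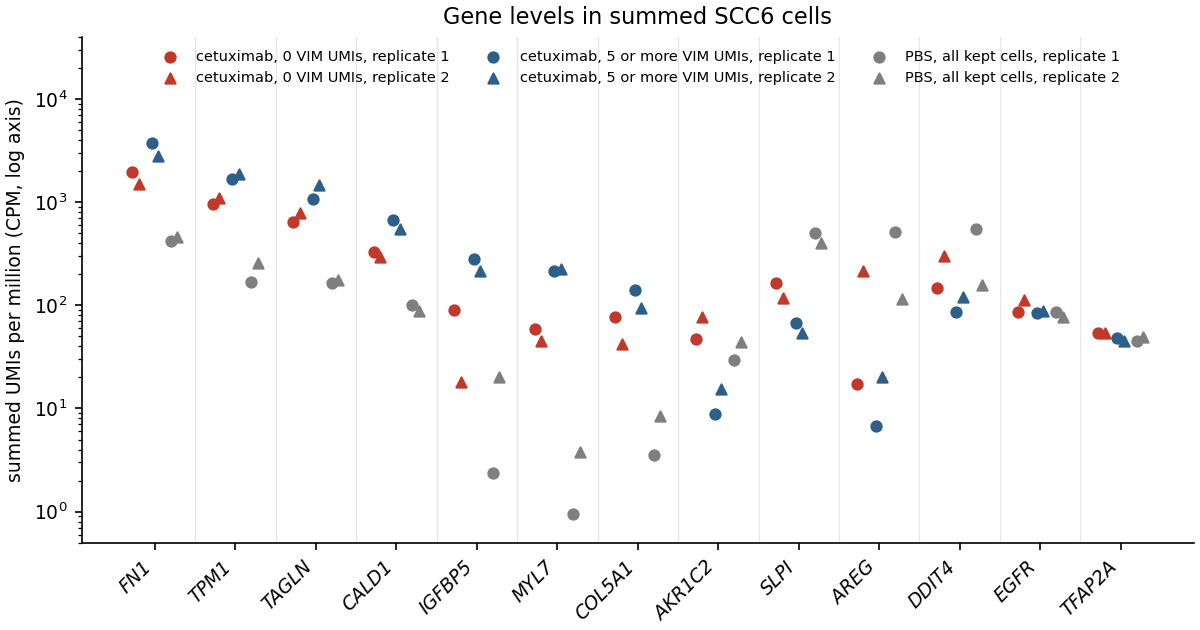
Level in CPM (log axis) of 13 genes in VIM-zero cetuximab cells, VIM-high cetuximab cells and all kept PBS cells of SCC6, with 1 point per replicate (circles replicate 1, triangles replicate 2). FN1 lies at 1935 and 1496 CPM in VIM-zero cells, between 3699 and 2812 in VIM-high and 419.8 and 455.4 in PBS cells, whereas EGFR lies between 76.3 and 112.4 CPM in all 3.

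Over the whole EMT and mesenchymal list, the change was broad. Of its 40 genes, 34 were tested, and 22 were lower and 0 higher in VIM-zero cells, with a median log2 fold change of -0.87 against -0.05 over all genes tested. COL3A1, 1 of the 22, lay near the floor. Among genes with a mean of 20 CPM or more the median was -0.75 in the list and -0.02 over all. In CPM, 31 of the 34 were lower in VIM-zero cells in both replicates, where 35.7% of all genes were lower and 22.5% higher in both. Depth-matched cells gave 17 lower and 0 higher of 29, where 147 of all 11717 genes were lower and 90 higher. CDH2, or N-cadherin, was at 24.3 and 29.2 CPM in VIM-zero and 57.0 and 56.8 in VIM-high cells (log2 fold change -1.14 ± 0.16, FDR = 1.55e-07). LGALS1, galectin-1, was at 2641 and 2958 CPM in VIM-zero, 4451 and 4592 in VIM-high and 2088 and 2607 in PBS cells (-0.70, FDR = 5.95e-15). The summed level of the list was 8382 and 9242 CPM in VIM-zero, 14585 and 15525 in VIM-high and 3737 and 4754 in PBS cells. Of 10 transcription factors that drive EMT, 8 were tested and 0 passed in edgeR or in DESeq2 (1 at an unadjusted p under 0.05 in edgeR). SNAI2, the most abundant of them, was at 49.6 and 48.9 CPM in VIM-zero and 58.5 and 60.5 in VIM-high cells (FDR = 0.374).

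Contractile and TGF-beta genes gave related counts, in part through shared members such as TAGLN, TPM1 and INHBA. Of 30 contractile and actin genes, all tested, 14 were lower and 0 higher (median log2 fold change -0.31). Among all genes 2.98% were lower and 1.55% higher. Of 24 genes of the TGF-beta pathway, which induces EMT, 9 were lower and 1 was higher (median -0.37). BAMBI, a decoy receptor of the pathway, was at 83.1 and 77.2 CPM in VIM-zero and 182.1 and 139.5 in VIM-high cells (log2 fold change -1.03 ± 0.12, FDR = 3.09e-10). INHBA, the subunit of activin A, was at 34.9 and 75.5 CPM in VIM-zero and 116.2 and 183.4 in VIM-high cells (-1.53 ± 0.14, FDR = 1.11e-13). In PBS cells INHBA was at 54.8 and 48.5 CPM, within the range of the VIM-zero values. In members of replicate 2, 38 of its 88 UMIs came from 1 cell. ID1, a target of bone morphogenetic proteins and the gene of the list that was higher, was at 815 and 595 CPM against 589 and 516 (0.34, FDR = 8.98e-04).

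**Figure D3:**
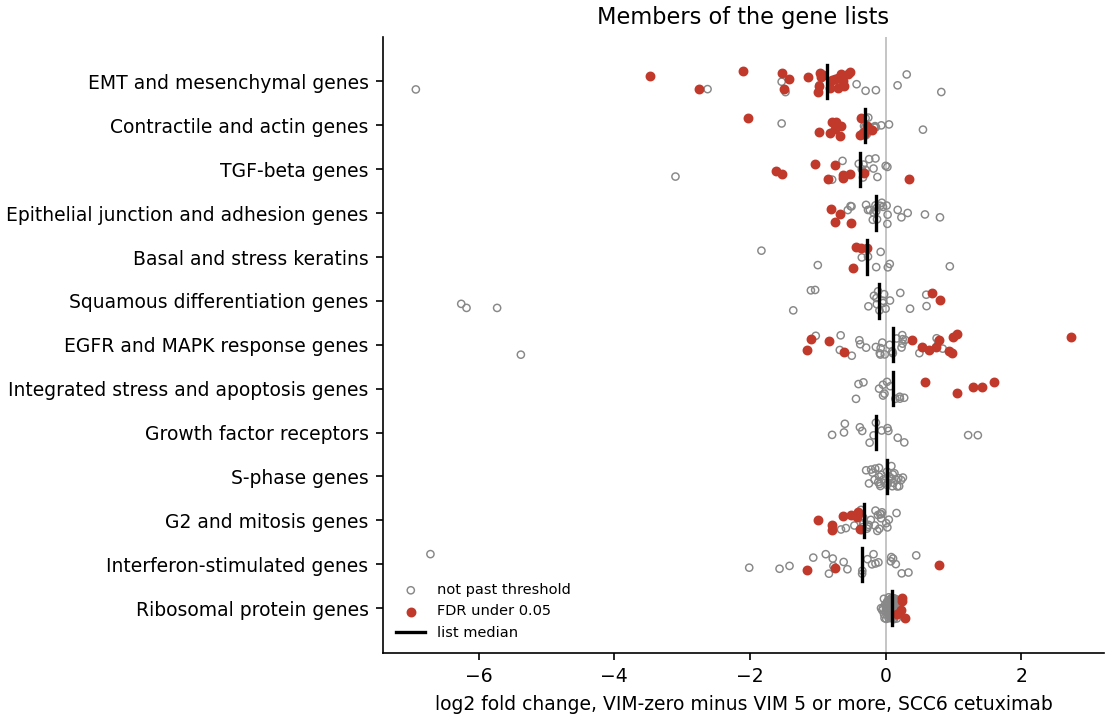
Log2 fold change of VIM-zero against VIM-high cetuximab cells of SCC6 (horizontal axis) for the tested members of 13 gene lists, with 1 point per gene, filled where the edgeR FDR was under 0.05, and a bar at each list's median. The EMT and mesenchymal list has its median at -0.87, the S-phase list at 0.02 and the ribosomal protein list at 0.09.

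Other genes with large falls belonged to secreted and cytoskeletal proteins. TUBA1A, an alpha-tubulin, was at 21.5 and 50.6 CPM in VIM-zero and 103.1 and 230.0 in VIM-high cells (log2 fold change -2.22 ± 0.16, FDR = 1.21e-18). In PBS cells it was at 2.08 and 22.7 CPM, which overlaps the VIM-zero values. IGFBP5, a binding protein of insulin-like growth factors, was at 91.0 and 18.0 CPM in VIM-zero and 281.9 and 213.0 in VIM-high cells (-2.10 ± 0.15, FDR = 9.59e-19). Over 16 alternatives its log2 fold change ran from -3.545 to -1.66. Its PBS values, 2.37 and 20.1 CPM, also overlapped the VIM-zero values. Members of replicate 2 held only 21 IGFBP5 UMIs, and 11 of them came from 1 cell. ACTG2, the gamma-actin of smooth muscle, was at 15.7 and 6.86 CPM against 64.6 and 61.6 (-2.32 ± 0.19, FDR = 2.34e-15), and at 3.09 and 3.59 CPM in PBS cells. The list of the 10 largest falls also held GPC4, C15orf48, LTB, IGFBP3 and IL32, with log2 fold changes between -1.61 and -1.51. Of these, LTB rested on few cells, since 26 of its 57 UMIs in replicate 1 came from 1 member, and it did not pass with DESeq2, with depth-matched cells or without either cetuximab replicate.

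Among the genes that were higher in VIM-zero cells, the aldo-keto reductases AKR1C2 and AKR1C3, which reduce steroids and reactive aldehydes, stood out. AKR1C2 was at 47.5 and 76.4 CPM in VIM-zero, 8.85 and 15.5 in VIM-high and 29.6 and 44.0 in PBS cells (log2 fold change against VIM-high 2.37 ± 0.14, FDR = 4.52e-21). Only 25 of 113 and 7 of 22 members held AKR1C2 UMIs, and 1 member in each sample held 41 of 139 and 40 of 89 of them. Both VIM-zero values were above both VIM-high values. They remained so without that member, at 33.7 and 44.5 CPM. AKR1C2 and AKR1C3 are near-identical in sequence, and how reads shared between them were counted is not given in the sources used here. SLPI, a secreted protease inhibitor of epithelia, was at 164.5 and 116.7 CPM in VIM-zero, 67.8 and 54.2 in VIM-high and 501.1 and 398.5 in PBS cells (1.20 ± 0.10, FDR = 2.80e-15). CYP1B1, a cytochrome P450, was at 74.5 and 63.5 CPM against 32.7 and 23.4 (1.27 ± 0.13, FDR = 7.69e-12). In replicate 2, however, 1 cell held 48 of 74 CYP1B1 UMIs, and without it members stood at 23.0 CPM, the level of VIM-high cells.

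In the integrated stress response, cells slow translation and induce repair genes. Of 18 integrated stress and apoptosis genes, 5 were higher and 0 lower, where 1.55% of all genes were higher and 2.98% lower. The 5 were DDIT3, TRIB3, DDIT4, PPP1R15A and GDF15. Of these, PPP1R15A did not pass with depth-matched cells or at a limit of 25000 UMIs. DDIT3, the stress transcription factor CHOP, was at 58.8 and 75.5 CPM in VIM-zero and 19.3 and 24.6 in VIM-high cells (log2 fold change 1.61 ± 0.18, FDR = 2.43e-10). Single cells weighed in here too, since 53 of 172 DDIT3 UMIs in replicate 1 and 48 of 88 in replicate 2 came from 1 member each. Over 16 alternatives the log2 fold change of DDIT3 ran from 1.17 to 1.89. DDIT4, an inhibitor of the mTOR pathway, was at 147.7 and 302.0 CPM against 86.3 and 119.4 (1.05 ± 0.10, FDR = 1.64e-13). In PBS cells the replicates themselves lay far apart for these genes, at 220.1 and 22.6 CPM for DDIT3 and 549.0 and 156.4 CPM for DDIT4.

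EGFR and MAPK response genes, which fall when the receptor is blocked, did not move one way between the VIM classes. Of 41 genes, 10 were higher and 4 lower in VIM-zero cells, where 1.55% of all genes were higher and 2.98% lower. The median log2 fold change of the list was 0.11. Those that were higher included the ligand genes AREG and EREG, the transcription factor gene FOSL1, PHLDA1, UPP1 and HMGA1. Those that were lower were EPHA4, HBEGF (also a ligand of EGFR), IER3 and PTGS2. EPHA4 and HBEGF lay near the floor, at 6.15 and 4.29 CPM and at 2.735 and 6.005 CPM in VIM-zero cells. HBEGF passed narrowly (FDR = 0.0446). DESeq2 called 8 of the 41 higher and 2 lower, where it called 130 and 171 of all 14820. Depth-matched cells gave 6 higher and 2 lower of 40, where 90 and 147 of all 11717 were called. EREG was at 14.02 and 37.8 CPM in VIM-zero, 6.13 and 21.1 in VIM-high and 184.7 and 93.7 in PBS cells (log2 fold change against VIM-high 1.00 ± 0.18, FDR = 6.27e-05). In replicate 2, 1 member held 20 of 44 EREG UMIs, and without it members stood at 22.0 CPM, near VIM-high cells. EREG did not pass with thinned cells or without cetuximab replicate 1. PHLDA1 was at 38.3 and 71.2 CPM in VIM-zero, 23.3 and 38.4 in VIM-high and 637 and 150.7 in PBS cells (0.79 ± 0.13, FDR = 4.49e-06). For both genes all VIM-zero values lay below the PBS values. The summed level of the list was 2767 and 3782 CPM in VIM-zero, 2507 and 3398 in VIM-high and 6379 and 4351 in PBS cells.

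AREG, which encodes amphiregulin, had the largest rise of the genes named by rule and also the most uneven one. It was at 17.4 and 212.7 CPM in VIM-zero, 6.70 and 19.95 in VIM-high and 516.3 and 115.0 in PBS cells (log2 fold change against VIM-high 2.73 ± 0.18, FDR = 8.14e-20). Over 16 alternatives the log2 fold change ran from 1.14 to 3.64, a range that the SE does not cover. Of 248 AREG UMIs in the 22 members of replicate 2, 198 came from 1 cell, and the other 21 members stood at 44.6 CPM. Without the member richest in AREG in each sample the log2 fold change was 1.14 (FDR = 3.29e-06), and 599 genes passed in all. After thinning, AREG was present in 23 of 113 and 4 of 22 members, or 20.4% (exact 95% interval 13.4 to 29.0) and 18.2% (5.19 to 40.3), against 5.52% and 16.5% of VIM-high cells and 74.7% and 56.6% of VIM-zero PBS cells. In replicate 2 the share of VIM-high cells with AREG lay within the interval of the members.

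TFAP2A, EGFR and AXL, genes followed in the study, did not pass between the VIM classes after cetuximab. TFAP2A, a transcription factor of epithelia that regulates receptor genes, was at 53.3 and 54.1 CPM in VIM-zero, 47.6 and 44.6 in VIM-high and 44.8 and 49.5 in PBS cells (log2 fold change against VIM-high 0.20 ± 0.13, FDR = 0.535). It was present after thinning in 52.2% of members of replicate 1 (42.6 to 61.7) and 59.1% of replicate 2 (36.4 to 79.3), and in 48.5% and 46.0% of VIM-high cells. EGFR was at 86.9 and 112.4 CPM in VIM-zero and 84.0 and 87.3 in VIM-high cells (0.18 ± 0.11, FDR = 0.492). AXL, a receptor tyrosine kinase often found with the mesenchymal state, was at 119.3 and 137.3 CPM in VIM-zero, 130.1 and 153.1 in VIM-high and 81.4 and 87.5 in PBS cells (-0.14 ± 0.10, FDR = 0.575). Of 15 growth factor receptors tested, 0 passed in edgeR or in DESeq2 (3 at an unadjusted p under 0.05 in edgeR). A p that misses the threshold does not show equal levels.

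Epithelial genes moved in both directions. Of 27 junction and adhesion genes tested, 0 were higher and 4 were lower, among them DSP, CDH3 and COL17A1. Among all genes 1.55% were higher and 2.98% lower. DESeq2 and depth-matched cells each gave 2 lower and 0 higher of the 27. Of all genes, 171 of 14820 and 147 of 11717 were lower there. CDH3 passed under 10 of 16 alternatives, and not with DESeq2, thinned or depth-matched cells. DSP, or desmoplakin, was at 181.6 and 117.5 CPM in VIM-zero and 305.5 and 171.3 in VIM-high cells (log2 fold change -0.68 ± 0.10, FDR = 4.99e-07). Of 13 keratins, 4 were lower and 0 higher. KRT17 was at 1740 and 1643 CPM in VIM-zero, 2188 and 2534 in VIM-high and 770.5 and 438.6 in PBS cells (-0.48 ± 0.07, FDR = 3.13e-07). KRT8 and KRT18, the simple-epithelial pair, changed by -0.37 and -0.28 on the log2 scale. The 2 of 23 squamous differentiation genes that passed, S100A9 and CSTA, were higher, S100A9 at 116.3 and 145.0 CPM against 80.1 and 65.5 (0.80 ± 0.11, FDR = 1.55e-07).

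Cell cycle genes differed in part. Of 30 S-phase genes 0 passed in edgeR or in DESeq2 (0 at an unadjusted p under 0.05 in edgeR), and their median log2 fold change was 0.02. Of 35 genes of G2 and mitosis, 9 were lower and 0 higher (median -0.33), where 2.98% of all genes were lower and 1.55% higher. In single cells thinned to 15000 UMIs the same list went the other way, with a median of 12 UMIs in members against 11 in VIM-high cells of replicate 1 and 40.5 against 24 in replicate 2. CCNB1, or cyclin B1, was at 38.3 and 150.1 CPM in VIM-zero and 74.1 and 191.7 in VIM-high cells (-0.63 ± 0.13, FDR = 5.35e-04). With depth-matched cells 0 of the 35 passed, and CCNB1 did not pass without cetuximab replicate 1. Of 73 ribosomal protein genes, 5 were higher and 0 lower (median 0.09). The change was small but mostly 1 way. In CPM, 55 were higher and 1 lower in both replicates, where 22.5% of all genes were higher and 35.7% lower.

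Transcription factors and smaller lists moved in both directions. Of 15 TFAP2 and squamous transcription factors tested, 2 were higher and 3 lower, where 1.55% of all genes were higher and 2.98% lower. SOX4, a factor of progenitor cells, was at 1079 and 601.4 CPM in VIM-zero, 1677 and 852.9 in VIM-high and 332.4 and 315.3 in PBS cells (log2 fold change against VIM-high -0.58 ± 0.09, FDR = 3.75e-06). ELF3, an epithelial factor, was at 71.5 and 56.6 CPM in VIM-zero, 35.9 and 43.6 in VIM-high and 213.2 and 141.5 in PBS cells (0.75 ± 0.13, FDR = 1.57e-05). For ELF3 the VIM-zero values lay above both VIM-high and below both PBS values. KLF5 was also higher, and SOX9 and EHF were lower. Of 28 interferon-stimulated genes, 1 was higher (IRF1) and 2 were lower (ISG15 and IFI6), ISG15 at 70.1 and 60.9 CPM against 99.1 and 133.4 (-0.75 ± 0.12, FDR = 5.88e-06). Of 20 FOXO and PI3K response genes, 2 were higher and 4 lower.

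Lists that track handling and RNA quality also held calls, where 1.55% of all genes were higher and 2.98% lower. Of 20 dissociation and heat shock genes, 2 were higher (HSPA1A and HSPH1) and 2 were lower (JUN and IER3). Of 13 mitochondrially encoded genes 2 were lower, MT-CO1 (-0.20 on the log2 scale) and MT-CO2 (-0.19). Neither passed with depth-matched cells, where 2 other genes of the list were higher and 0 lower. The log2 fold change of both stayed negative under all 16 alternatives. The nuclear RNA NEAT1 was higher (0.25, FDR = 0.0288), the only call among 3 nuclear-retained RNAs tested, and it passed under 5 of 16 alternatives. Of 17 glycolysis and hypoxia genes 1 was higher, NDRG1, and of 15 D cyclins and CDK inhibitors 1 was lower, GADD45A. Of the endothelial and fibroblast markers 5 were tested and COL1A1 and COL3A1 were lower, which are collagens that cells in EMT also make. COL3A1 lay near the floor, at 0.342 and 0 CPM in VIM-zero and 2.88 and 2.29 CPM in VIM-high cells. Its call says only that it was found in VIM-high cells. With depth-matched cells 1 marker of the list was tested and 0 passed. Of 3 immune markers and 1 liver marker tested, 0 passed in edgeR (1 and 0 at an unadjusted p under 0.05).

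Levels of several mesenchymal genes climbed with the VIM count within each cetuximab sample, which the rule's cut at 0 does not show. Cells with 1 VIM UMI, of which there were 123 and 43, had FN1 at 2130 and 1548 CPM, near the 1935 and 1496 CPM of the VIM-zero cells. FN1 stood at 2743 and 1674 CPM in cells with 2 to 4 VIM UMIs, at 3081 and 2244 CPM with 5 to 9, and at 4037 and 3029 CPM with 20 or more. MYL7 went from 59.2 and 45.5 CPM without VIM to 49.8 and 26.7 CPM with 1 VIM UMI and to 251.5 and 278.4 CPM with 20 or more. KRT17 was also highest with 20 or more VIM UMIs, at 2463 and 2889 CPM. In replicate 1 it fell from 1740 CPM without VIM to 1131 CPM with 1 VIM UMI, and rose in each class above that. In replicate 2 it lay between 1643 and 2008 CPM up to 19 VIM UMIs, without a steady rise. These are sums over cells of 1 sample, and depth also differed between the classes, with medians of 24098 UMIs without VIM and 26998 with 20 or more in replicate 1.

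**Figure D4:**
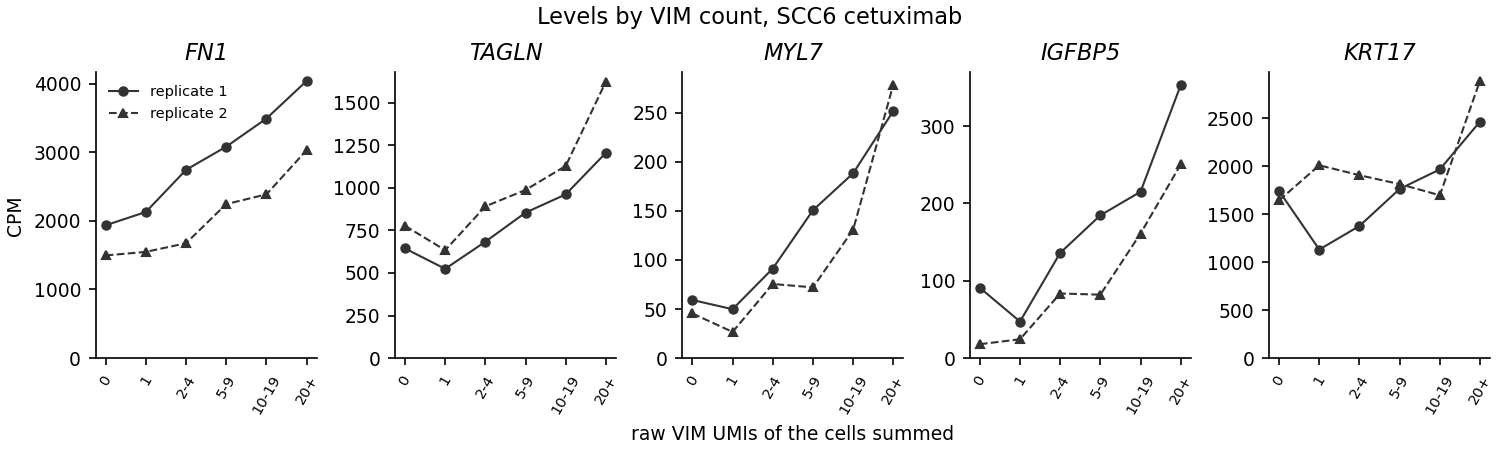
CPM (vertical axes, from 0) of 5 genes in cetuximab-treated SCC6 cells summed by raw VIM count (horizontal axes), with circles for replicate 1 and triangles for replicate 2. FN1 runs from 1935 and 1496 CPM without VIM to 4037 and 3029 CPM at 20 or more VIM UMIs, and cells with 1 VIM UMI lie close to cells without VIM.

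The second comparison set VIM-zero cetuximab cells against all kept PBS cells, and asked whether cells without VIM resembled untreated cells. With 4 sums and 2 residual degrees of freedom, 0 of 14520 genes passed in edgeR in either direction (0% higher and 0% lower, 954 at an unadjusted p under 0.05), while DESeq2 called 96, of which 59 were higher and 37 lower. In edgeR the count was 15 without PBS replicate 1 and 116 without PBS replicate 2. Among genes with a mean of 20 CPM or more, the smallest p on the higher side were those of genes of the contractile apparatus and the matrix. MYL7 had a log2 fold change of 4.28 ± 0.58 (edgeR FDR = 0.0518), COL5A1 3.14 ± 0.48 (0.0750), COL4A1 2.17 ± 0.36 (0.0786), TPM1 2.09 ± 0.33 (0.0786) and TAGLN 1.85 ± 0.31 (0.0786). All 5 passed with DESeq2, with FDR between 7.08e-11 and 1.96e-04.

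On the lower side, the genes with the smallest p at that mean level were AQP3, CXCL8, IL1B, LY6K and SLPI. AQP3, a water and glycerol channel of keratinocytes, was at 17.4 and 12.9 CPM in VIM-zero cetuximab cells and 143.8 and 92.4 CPM in PBS cells (log2 fold change -3.14 ± 0.39, edgeR FDR = 0.0518). In VIM-high cells AQP3 was at 10.7 and 9.86 CPM. CXCL8, or interleukin-8, was at 21.5 and 11.2 CPM in VIM-zero and 215.3 and 71.9 in PBS cells (-3.28 ± 0.54, edgeR FDR = 0.0786), and IL1B at 15.4 and 14.6 against 73.9 and 47.9. All 5 genes passed with DESeq2, and in none of them did the VIM-zero and PBS values overlap.

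By list, VIM-zero cells differed from PBS cells in the direction of treatment. Of 29 EMT and mesenchymal genes tested, 20 had both VIM-zero values above both PBS values and 2 had both below, where 23.5% of all genes were above and 12% below. Their median log2 fold change was 1.46, against -0.06 over all genes tested. DESeq2 called 9 of them higher and 0 lower, where it called 59 higher and 37 lower of all 14520. Of 41 EGFR and MAPK response genes, 3 were above and 19 below in both, with a median of -0.81, and DESeq2 called 0 higher and 7 lower. Contractile genes had 15 of 28 above and 0 below in both.

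VIM-high cells against the same PBS cells gave larger values for the mesenchymal genes, and both comparisons share the PBS samples. Here 256 of 15782 genes were higher (1.62%) and 90 lower (0.57%), and the count of 346 became 720 without PBS replicate 1 and 1671 without PBS replicate 2. The EMT and mesenchymal list had a median log2 fold change of 2.48 with 19 of 35 higher, and the EGFR and MAPK response list a median of -0.89 with 1 higher and 5 lower of 41. Side by side, FN1 differed from PBS by 1.77 ± 0.32 in VIM-zero and 2.68 ± 0.26 in VIM-high cells. MYL7 differed by 4.28 ± 0.58 and 6.34 ± 0.67, AREG by -1.71 ± 0.86 and -4.79 ± 0.85, PHLDA1 by -3.09 ± 0.59 and -3.90 ± 0.69, and SLPI by -1.88 ± 0.33 and -3.10 ± 0.29.

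In single cells thinned to 15000 UMIs, the members spread widely. The EMT and mesenchymal list, from which VIM was left out, gave a median of 120 UMIs in members of replicate 1 (lowest 24, highest 339) and 133.5 in replicate 2 (lowest 50, highest 284). VIM-high cells had medians of 208 and 226, and PBS cells 53 and 65. In replicate 1, 59 of 113 members lay above the 90th percentile of both PBS samples, in replicate 2 16 of 22 did. Below the 10th percentile of VIM-high cells of their own sample lay 56 and 11 members. At least 1 FN1 UMI was found in all 135 members after thinning, and in 92.0% and 90.1% of VIM-zero PBS cells. These shares include any free RNA in the droplets, whose part was not tested. The median was 25 and 15 FN1 UMIs in members against 4 and 4 in PBS cells.

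For the EGFR and MAPK response list the members had medians of 40 and 47 UMIs, against 37 and 48 in VIM-high cells and 86 and 64 in PBS cells. Of the 113 members of replicate 1, 0 exceeded the higher of the PBS medians, and 1 of 22 did in replicate 2.

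**Figure D5:**
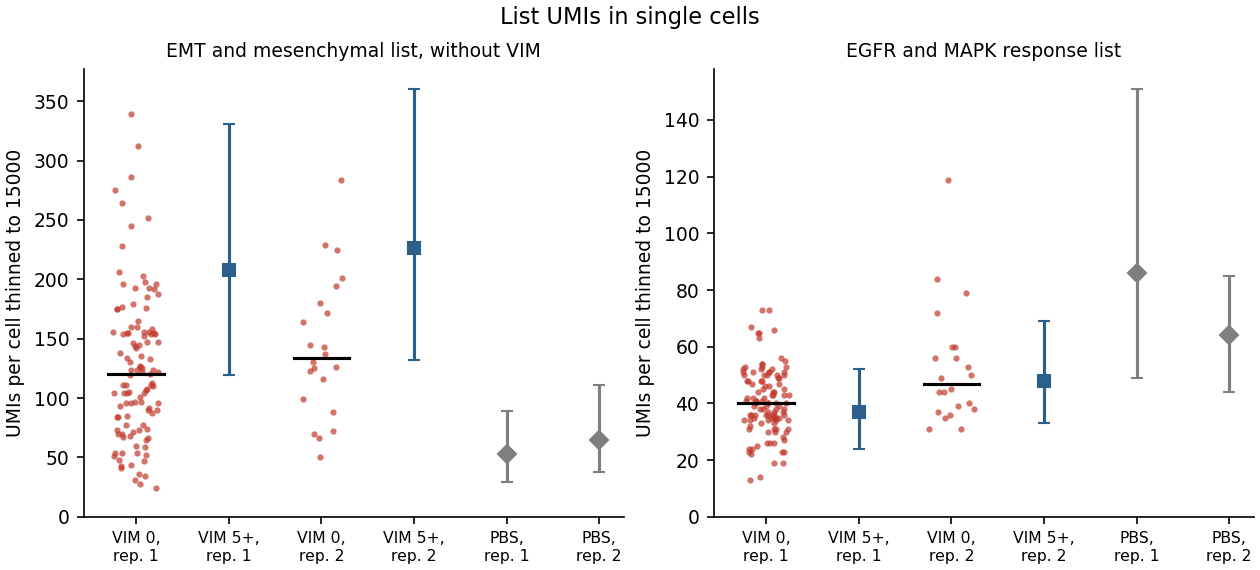
UMIs per cell thinned to 15000 (vertical axes, from 0) for the EMT and mesenchymal list (left) and the EGFR and MAPK response list (right), with 1 red point per VIM-zero member and a bar at their median, and median with 10th to 90th percentile for VIM-high (squares) and PBS cells (diamonds). Members have mesenchymal medians of 120 and 133.5, between VIM-high and PBS cells, and MAPK medians of 40 and 47, against 37 and 48 in VIM-high and 86 and 64 in PBS cells.

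Over the whole transcriptome, the neighbours of most members were cells of their own sample. Each cell was compared with its 30 nearest neighbours in 30 principal components of 1000 variable genes without VIM, among 1500 reference cells per SCC6 sample. On average 6.14% of the neighbours of members were PBS cells in replicate 1 and 22.9% in replicate 2, against 0.940% and 5.04% for VIM-high cells. Cells of the same sample made up 86.3% and 73.2% of the neighbours of members, and cells of the other cetuximab replicate 7.58% and 3.94%. In replicate 2 members thus had more neighbours from PBS than from the other cetuximab sample. Cells with 1 to 4 VIM UMIs lay between them at 3.53% and 16.4%. For VIM-zero PBS cells the share was 99.6% and 96.7%, but 97.8% and 94.8% came from their own sample. Only 1.80% and 1.93% came from the other PBS replicate. Neighbours from the own sample prevailed in every class, so the share of PBS neighbours cannot tell treatment from sample. In replicate 1, 87 of 113 members had no PBS neighbour, and in replicate 2 9 of 22. A majority of PBS neighbours was found for 3 of 113 and 5 of 22 members, and these 8 cells held 24 to 125 UMIs of the mesenchymal list after thinning.

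The last comparison tested whether the difference between VIM classes was itself different after cetuximab, with the VIM classes of the PBS samples in the same fit. It passed for 147 of 14820 genes (0.992%). In 69 of them the log2 fold change of VIM-zero against VIM-high cells was higher after cetuximab than in PBS and in 78 it was lower (105 and 78 with the size factors of DESeq2). The count was 36 without cetuximab replicate 1, 90 without cetuximab replicate 2, 82 without PBS replicate 1, 26 with DESeq2 and 0 without the sample block in edgeR (131 at an unadjusted p under 0.05). FN1 did not pass (difference of log2 fold changes 0.03 ± 0.09, FDR = 0.977). In PBS it was at 369.1 and 322.4 CPM in VIM-zero and 676.5 and 721.0 CPM in VIM-high cells, a ratio of the same order as after cetuximab. AXL passed (0.53 ± 0.13, edgeR FDR = 0.0237), but under only 3 of 11 alternatives. In PBS, AXL was at 71.6 and 73.3 CPM in VIM-zero and 124.3 and 118.5 CPM in VIM-high cells. After cetuximab it was at 119.3 and 137.3 CPM, and 130.1 and 153.1 CPM.

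Genes with the smallest p in that test were AREG, UPP1, FTL, DDIT4 and DDIT3. UPP1, or uridine phosphorylase, was at 291.0 and 365.4 CPM in VIM-zero and 159.6 and 179.6 CPM in VIM-high cells after cetuximab. In PBS, UPP1 was at 481.7 and 225.4 CPM without VIM and 631 and 285 CPM in VIM-high cells, so that the order of the classes was opposite (difference of log2 fold changes 1.23 ± 0.11, FDR = 1.02e-12). FTL, the light chain of the iron store ferritin, was at 9923 and 7333 CPM in VIM-zero and 5689 and 4159 CPM in VIM-high cells after cetuximab, against 4624 and 4123, and 4854 and 3718 CPM in PBS (0.70 ± 0.08, FDR = 1.36e-09). After cetuximab, FTL was higher in VIM-zero cells in both samples, while in PBS the classes differed in opposite directions in the 2 replicates.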

How the data were processed

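Raw UMI counts per gene and cell were deposited by the authors as tables made with Cell Ranger on GRCh38, per the submitters' processing notes, whose software version is not given in the sources used here, and pre-processed with Monocle per the study's methods. The deposited count tables hold 33538 genes and 23914 cells, and cells were assigned to samples through the deposited cell annotation.

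SCC6 cells with 15000 or more UMIs were kept and classed by raw VIM count (0, 1 to 4, 5 or more). UMIs were summed per sample and class and tested with edgeR 4.0.16 in R 4.3.3 (quasi-likelihood F-test, two-sided, TMM scaling, filterByExpr, VIM left out), with Benjamini-Hochberg FDR under 0.05 over all genes tested. The comparison within samples used 8 sums with the sample as a block, which is given by the samples themselves, and those with PBS used 4 sums. Each left 2 residual degrees of freedom. A CPM is a sum of UMIs scaled by the total of its cells, and an SE was derived from the F statistic. Because the fit shares variance across genes, an SE can be narrower than the spread between the 2 samples. An exact permutation test of 2 sums against 2 cannot go below p = 0.333, so that none was run. Exact intervals are Clopper-Pearson at 95% and, like the counts, cover counting error only. Coordinates of VIM come from RefSeq (GRCh38.p14). Scripts were tested on simulated data.

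Alternatives were DESeq2 1.42.0, its size factors, no filter, thinned or depth-matched cells, a limit of 25000 UMIs, other blocks, and leaving out each sample. Python 3.11.15, numpy 2.4.6, scipy 1.17.1, scikit-learn 1.9.0 and matplotlib 3.10.9 were used.

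The members and the 24 gene lists were chosen with earlier results of these data known. Named genes were, in each comparison of 2 groups, the 10 largest rises and 10 largest falls past the threshold with a mean of 20 CPM or more and 1 direction in both replicates, or else the 5 smallest p-values, the 5 smallest p-values of the comparison between treatments, up to 4 members per list with the largest change between VIM classes, and VIM, TFAP2A, EGFR and AXL. The text gives a choice of them. Other genes, including those of lists with few calls, were named after their values were seen. A few genes are not reported here.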

Additional observations from a re-analysis of the deposited data

Results flagged for a closer look

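The difference between VIM-zero and VIM-high cells was itself different after cetuximab and in PBS for 147 genes (edgeR, test of the difference, FDR under 0.05). Among the 5 genes with the smallest p, that difference of log2 fold changes (cetuximab minus PBS) was 2.71 for AREG, 1.23 for UPP1, 0.70 for FTL, 1.11 for DDIT4 and 1.87 for DDIT3. For AREG it was 1.11 (FDR = 0.000216) and for DDIT3 1.46 (FDR = 0.000363) without the member richest in AREG in each cetuximab sample, a setting chosen after the data were seen. With DESeq2 neither AREG nor DDIT3 passed. DDIT3 also did not pass without cetuximab replicate 1, and FTL did not pass without PBS replicate 1. None of the 5 passed without the sample block. In PBS, DDIT3 was at 227.6 and 17.7 CPM in VIM-zero and 179.1 and 38.97 CPM in VIM-high cells, so that the order of the classes differed between the PBS replicates.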

How the results depend on the processing

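The count of genes that differed between VIM-zero and VIM-high cells was 670 in edgeR, 301 with DESeq2, 385 with cells thinned to 15000 UMIs, 237 with depth-matched cells and 0 with no replicate block for the sample, and it ranged from 168 to 573 when 1 sample was left out. For VIM-zero cells against PBS the count of 0 became 96 with DESeq2, 10 against PBS cells without VIM, 36 with thinned cells, 12 at a limit of 25000 UMIs, 180 with no filter and 5 without the member richest in AREG in each sample (chosen after the data were seen), and it ranged from 0 to 116 when 1 sample was left out. For VIM-high cells against PBS the count of 346 became 1110 with DESeq2 and 1530 with no filter, and ranged from 264 to 1671. For the difference between treatments, 147 became 26 with DESeq2, 89 with thinned cells and 0 with no replicate block, and ranged from 36 to 100. Cetuximab and PBS samples share only a replicate number. With the number as a replicate block the counts were 760 for VIM-zero cells against PBS and 2444 for VIM-high cells against PBS, and the replicate differences of VIM-zero and PBS sums had r = 0.601 over 4980 genes, which are not independent. With 2 pairs this does not show pairing. The share of VIM-zero cells moved to 7.292% and 8.115% in cetuximab and 82.05% and 65.02% in PBS after thinning, and to 68.9% in PBS replicate 1 at the limit of 25000 UMIs. Among single named genes, 191 of the values recomputed for the VIM classes no longer passed and 5 newly passed, and 0 of the values that passed in either setting changed direction, while some that passed in neither did, such as EGFR between the VIM classes (log2 fold change from -0.01 to 0.38). The cause of these changes was not tested. Sums over 22 and 113 cells limit the precision.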

Other observations

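By the values alone, FTL stood higher in VIM-zero cells of the cetuximab samples than in VIM-zero cells of the PBS samples. FTL, the light chain of ferritin, was at 9923 and 7333 CPM in VIM-zero cetuximab cells and at 4624 and 4123 CPM in VIM-zero PBS cells, with no overlap between them. AXL was at 119.3 and 137.3 CPM in the former and 71.6 and 73.3 CPM in the latter. Against all kept PBS cells neither gene passed. FTL had FDR = 0.714 in edgeR and 0.795 in DESeq2, and AXL had FDR = 0.896 in edgeR. Of the members with a majority of PBS neighbours, 1 held 52 AREG UMIs and 57 FN1 UMIs after thinning to 15000, while the other 7 held 0 or 1 AREG UMI and 1 to 9 FN1 UMIs.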
